A study of Mus musculus with 9 samples.

Results

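Genes that set the pace of the G1 phase of the cell cycle were followed through kidneys of mice with and without Pkd2, 10 in all: the D-type cyclins Ccnd1, Ccnd2 and Ccnd3, the kinases Cdk2, Cdk4 and Cdk6, the kinase inhibitors Cdkn1b and Cdkn2c, the pocket protein gene Rb1 and the transcription factor gene Myc. They were chosen by symbol, and all 10 were found among the 22161 gene rows and passed the minimum mean of 10 normalized counts that left 15740 genes for testing. Pkd2 encodes polycystin-2, a channel mutated in polycystic kidney disease, and Ift88 encodes a transport protein needed to build cilia. RNA came from whole kidneys of C57BL/6 mice at 10 weeks (postnatal day 70), with 3 mice in each of 3 groups. The first group (WT) has the genotype Wild type, the second (KO) Pkd2fl/fl;Pax8rtTA;TetO-cre and the third (DKO) Ift88fl/fl;Pkd2fl/fl;Pax8rtTA;TetO-cre. Pax8rtTA drives the cre in kidney tubule cells once doxycycline is given, so other kidney cells keep the floxed genes. All mice, the WT group included, were given oral doxycycline (2 mg/ml) beginning on postnatal day 28 and lasting 2 weeks. A number after WT, KO or DKO denotes 1 mouse. The genes lie on chromosomes 7 (Ccnd1), 6 (Ccnd2 and Cdkn1b), 17 (Ccnd3), 10 (Cdk2 and Cdk4), 5 (Cdk6), 4 (Cdkn2c), 14 (Rb1) and 15 (Myc), by GENCODE M21. The question was how these G1 regulators differed when Pkd2 was lost alone and when it was lost together with Ift88.

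D-type cyclins are made in response to mitogens and bind Cdk4 or Cdk6. The complexes phosphorylate the Rb1 protein, which then releases E2F transcription factors, and E2F turns on genes of DNA replication together with the cyclins that activate Cdk2. Cdkn2c (p18) binds Cdk4 and Cdk6 and keeps them from their cyclins, while Cdkn1b (p27) binds and inhibits cyclin complexes of Cdk2. Myc, with its partner Max, binds the E-box CACGTG and raises genes of ribosome making, nucleotide synthesis and growth. Most tubule cells of an adult kidney are out of the cycle, and tubule cells re-enter it in polycystic disease and after injury.

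Promoters of the kinase genes held letters that Myc or E2F can read, and they differed in which. RefSeq promoters (GRCm38.p6, 250 bases before to 50 after a start) were found for 6 of the 10 members, with 8 starts in all, and the table used held none for Ccnd1, Ccnd2, Rb1 and Myc. The E-box CACGTG reads the same on both strands, and it occurred 4 times in the Cdk4 promoter, once in that of Cdk6 and once at the second start of Cdkn2c. Of 32851 promoters of the same length, 7.15% held this E-box and 8 promoters (0.0244%) held 4 or more. An E2F motif (TTTCCCGC, TTTGGCGC, TTTGCCGC or TTTCGCGC, searched on both strands) was found once, in the Cdk2 promoter, and 2.26% of all promoters held one. Neither motif was in the windows of Ccnd3 (2 starts), Cdkn1b or the first start of Cdkn2c. The 250 bases before the start are shown for the kinases, 5' to 3' on the gene's strand, with E-boxes or the E2F motif in capitals, because they are the members whose windows hold a match before the start. Cdk4 lies at chr10:127063285-127063534 (+), Cdk6 at chr5:3343643-3343892 (+) and Cdk2 at chr10:128705052-128705301 (-).
Cdk4: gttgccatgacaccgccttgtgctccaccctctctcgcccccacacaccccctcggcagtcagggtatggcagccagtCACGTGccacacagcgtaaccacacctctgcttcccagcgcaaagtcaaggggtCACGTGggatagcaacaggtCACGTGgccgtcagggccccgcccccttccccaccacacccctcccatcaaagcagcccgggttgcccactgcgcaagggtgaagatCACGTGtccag
Cdk6: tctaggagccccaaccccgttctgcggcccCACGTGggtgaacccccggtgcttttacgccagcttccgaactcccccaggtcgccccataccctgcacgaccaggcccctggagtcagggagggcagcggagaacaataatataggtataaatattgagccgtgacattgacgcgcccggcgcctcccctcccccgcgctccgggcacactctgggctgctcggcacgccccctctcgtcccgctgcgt
Cdk2: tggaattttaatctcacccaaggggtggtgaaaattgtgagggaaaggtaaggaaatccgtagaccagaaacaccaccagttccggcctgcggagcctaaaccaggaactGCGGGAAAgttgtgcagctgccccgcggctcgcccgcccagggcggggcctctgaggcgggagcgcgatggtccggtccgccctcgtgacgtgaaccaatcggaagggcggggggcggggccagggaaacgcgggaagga
Counted from 1 at the start base, with the base before it as -1, the first bases of the Cdk4 E-boxes lie at -172, -118, -98 and -11, that of Cdk6 at -220 and the E2F motif of Cdk2 at -140. The GC box GGGCGG occurred 6 times in the Cdk2 promoter and 3 times in that of Cdk4, and 35.7% of all promoters held at least 1. A match describes letters and not binding.

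**Figure D1:**
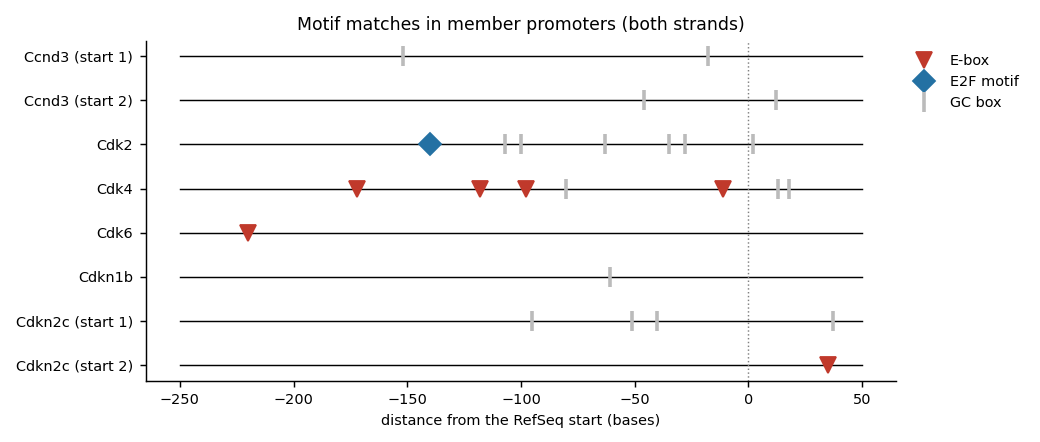
Matches to the E-box (red triangles), E2F motifs (blue diamond) and the GC box (grey bars) in the 8 RefSeq promoters of 6 members, plotted by the distance of the match's first base from the start in bases. Cdk4 is the member with 4 E-boxes, and the single E2F match lies in Cdk2.

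Libraries had normalized totals of 40454151 to 42874467. Pkd2 fell in both mutant groups (log2 fold changes of -1.46 ± 0.12 and -1.60 ± 0.12 against WT, SE; limma adjusted p of 0.000972 and 0.000843; edgeR on 7 libraries gave 0.0581 for the first). Ift88 fell in DKO against KO (-0.60 ± 0.09, adjusted p = 0.0358), a call lost without WT1, WT2, KO1, KO2, DKO1 or DKO2, with only the 2 groups in the fit (0.0984), with edgeR (0.189) and with limma on those 7 libraries (0.228). Against WT, Ift88 in DKO was at -0.53 ± 0.09 and did not pass (limma adjusted p = 0.0617), and it passed without DKO3 (0.0449) and with array quality weights (0.00913). All 12 proximal tubule, 8 thick ascending limb and 6 podocyte markers were in the table and none was at 0 in all libraries. The thick ascending limb sum was 363717 to 381413 normalized counts in WT, 173622 to 210936 in KO and 228218 to 298403 in DKO. WT3 and KO3 carry a name prefix that differs from the other 2 mice of their group, and no prefix is shared between groups, so that prefix and genotype cannot be told apart. KO3 stood apart from KO1 and KO2 in several sums. Its erythroid markers summed to 6176 against 866 and 296, its mitogen-induced early genes to 64816 against 21500 and 25792, and its macrophage markers to 10975 against 19309 and 19892. The mice are biological replicates according to the series' design.

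No member passed the test in any of the 3 comparisons. Limma called 0 of 10 members in KO against WT, where 2.4% of all tested genes were called, 0 of 10 in DKO against KO, where 0.394% were called, and 0 of 10 in DKO against WT, where 0.229% were called. edgeR on the 7 libraries with recovered reads also called 0 members in each, where it called 0.0699, 0.0635 and 0.0635% of all genes. At an unadjusted p under 0.05, limma had 3 members higher in KO than in WT (Ccnd1, Cdk6 and Cdkn2c, 3 of 10 against 9.36% of all genes) and edgeR had 2 higher (Ccnd1 and Cdkn2c, against 5.41% of all genes). In DKO against KO, 2 members were lower at that level with limma (Ccnd1 and Cdkn2c, against 6.49% of all genes) and the same 2 with edgeR (against 4.02%), and in DKO against WT there were 0 with either (against 11.7% of all genes with limma). The KO and WT mice did not overlap for 2 members, Ccnd1 and Cdkn2c, both higher in KO, as was the case for 12.4% of all genes. The DKO and KO mice did not overlap for 3 members: Ccnd1 and Cdkn2c, lower in DKO (7.78% of all genes), and Rb1, higher in DKO (7.4%). The DKO and WT mice did not overlap for Cdkn1b, higher in DKO (9.1%). The first 2 comparisons share the KO mice, so a high or low KO value enters both with opposite sign.

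The members' differences were set beside those of all genes. Their median absolute log2 fold change was 0.16 in KO against WT, 0.13 in DKO against KO and 0.18 in DKO against WT, and over all tested genes it was 0.16, 0.12 and 0.14. Over genes with a mean of at least 50, as every member has, it was 0.14, 0.098 and 0.12. Signed medians were 0.16, -0.13 and 0.05 for the members and 0.0043, 0.0046 and -0.001 for all genes. With 8 of 10 means higher in KO than in WT and 7 of 10 lower in DKO than in KO, the members were not all on the same side. In whole kidney, fewer cells of a type and less RNA per cell cannot be told apart, which holds for every level below.

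**Figure D2:**
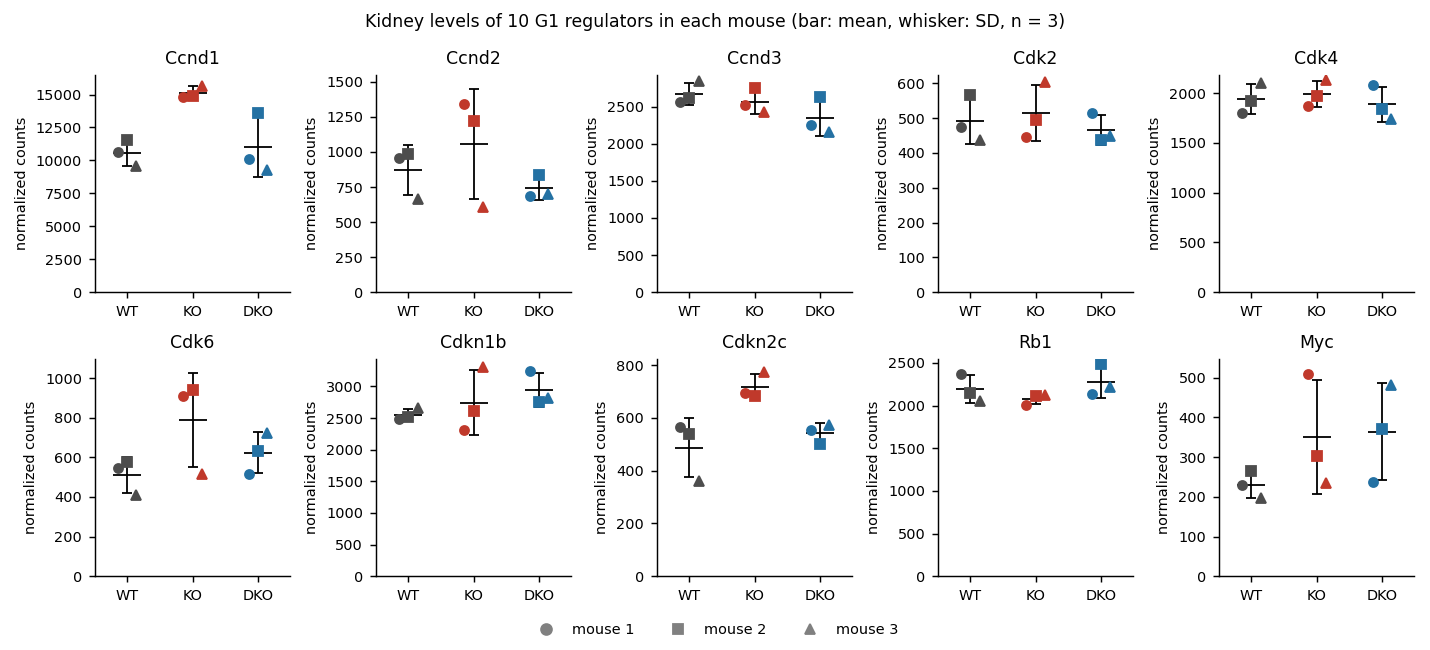
Normalized counts of the 10 members in each of the 9 mice, by group, with the mean (bar) and SD (whisker, n = 3), each panel on its own axis from 0. The 3 KO mice lie above all WT mice for Ccnd1 and Cdkn2c, while KO3 (triangle) lies far below KO1 and KO2 for Ccnd2 and Cdk6.

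Ccnd1, the cyclin D that mitogen signals induce most widely, was the member with the clearest group pattern. It stood at 10619, 11538 and 9545 normalized counts in WT1, WT2 and WT3, at 14795, 14921 and 15683 in KO1, KO2 and KO3, and at 10118, 13570 and 9274 in DKO1, DKO2 and DKO3. Every KO mouse was higher than every WT and DKO mouse, and the DKO mice overlapped the WT mice, with DKO2 nearest to the KO level. The KO mean of 15133 ± 481 (SD, n = 3) was 143% of the WT mean of 10567 ± 997, and the DKO mean of 10987 ± 2276 was 104% of it. The fitted log2 difference of KO from WT was 0.52 ± 0.13 (SE; 95% interval 0.22 to 0.82, a fold of 1.17 to 1.77), with a limma adjusted p of 0.0813, which missed the threshold of 0.05. DKO differed from KO by -0.48 ± 0.13 (interval -0.78 to -0.18; adjusted p = 0.196) and from WT by 0.04 (adjusted p = 0.934). The KO difference from WT passed when DKO2 was left out (adjusted p = 0.0239), with only the 2 groups in the fit (0.0292) and with array quality weights (0.0133), a setting that called 20.5% of all genes. Over all alternatives the adjusted p ran from 0.0133 to 0.409.

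Ccnd2, a D-type cyclin also prominent in blood and immune cells, varied mainly within groups. Its levels were 959, 988 and 666 in WT1 to WT3, 1343, 1223 and 611 in KO1 to KO3, and 688, 836 and 698 in DKO1 to DKO3. KO1 and KO2 were the highest of the 9 mice and KO3 was the lowest, at 47.6% of the mean of the other 2 KO mice, so that the KO range enclosed both other groups. KO differed from WT by a log2 of 0.22 ± 0.28 (adjusted p = 0.721) and DKO from KO by -0.44 ± 0.28 (adjusted p = 0.674, limma). Single mice decided both values: the first ran from 0.011 without KO1 to 0.58 without KO3 and also moved by over 1.5 times without KO2 or WT3, and the second was -0.23 without KO1 and -0.80 without KO3. Without WT3 and KO3, the mice of another name prefix, Ccnd2 fell in DKO against KO (-0.80 ± 0.10, adjusted p = 0.0232), the one member call of that fit. In this comparison that fit called 308 of 15740 genes, against 62 with all mice, and KO3 had the lowest Ccnd2 level. Ccnd3, a D-type cyclin found widely in differentiated tissues, was at 2564, 2618 and 2844 in WT, 2519, 2752 and 2427 in KO and 2258, 2631 and 2160 in DKO. All 3 groups overlapped. Its KO difference from WT was -0.06 ± 0.09 (interval -0.26 to 0.14), and its DKO difference from WT was -0.19 ± 0.09 (interval -0.39 to 0.01; adjusted p = 0.451).

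The makeup of the D-type cyclin pool was compared per length, as normalized counts per kb of exon (union of exons, GENCODE M21). Ccnd1 made up 85.1, 85.9 and 83.7% of the 3 D-type cyclins in WT1 to WT3, 88.0, 87.7 and 90.7% in KO1 to KO3, and 86.7, 88.1 and 86.01% in DKO1 to DKO3. Each mutant mouse was above every WT mouse, and KO overlapped DKO. The mean share was 84.9 ± 1.10% in WT, 88.8 ± 1.65% in KO and 86.9 ± 1.08% in DKO (SD, n = 3). The exact two-sided permutation p was 0.1 for KO against WT and for DKO against WT, the smallest that 3 mice against 3 allow, and 0.3 for DKO against KO. The share of Ccnd3 was 11.6 ± 1.55% in WT, 8.09 ± 0.576% in KO and 10.1 ± 0.828% in DKO, with KO separate from both other groups (exact p of 0.1 for each). The 3 cyclins together came to 2642 ± 216 normalized counts per kb in WT, 3619 ± 50.5 in KO and 2680 ± 520 in DKO. For this sum KO was separate from both other groups (exact p of 0.1 for each), and DKO against WT gave 0.9. Ccnd1 made up 83.7 to 90.7% of the pool, so the sum and the shares largely follow its level and are not separate results. The Ccnd2 share gave exact p of 0.8 for KO against WT, 0.9 for DKO against KO and 0.3 for DKO against WT. These were 3 comparisons of the sum and of each share, and no p could fall below 0.1 before adjustment.

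**Figure D3:**
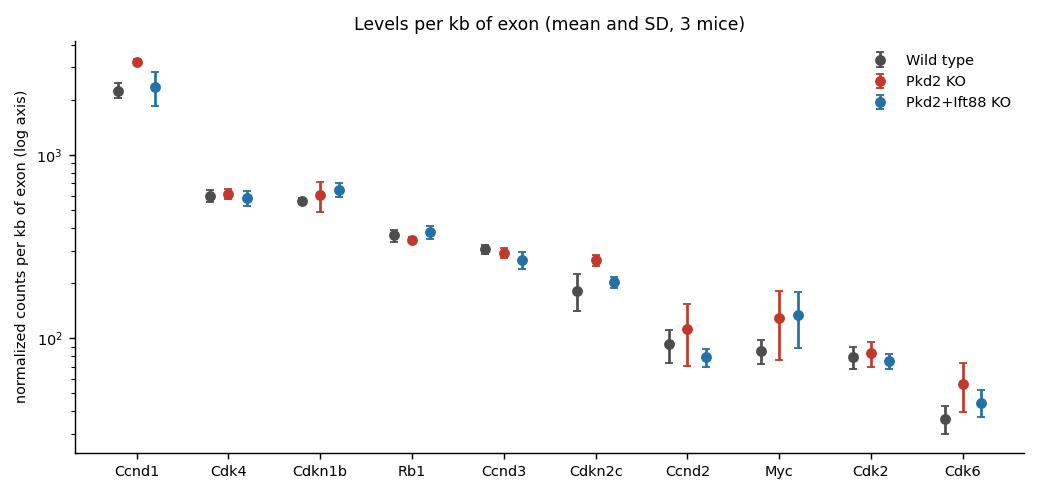
Mean level of each member in normalized counts per kb of exon (log axis) in the 3 groups, ordered by the WT mean, with SD over 3 mice as whiskers. Ccnd1 lies above all other members in every group, at 2244 in WT and 3214 in KO, and Cdk6 is the lowest at 36.5 in WT.

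Per kb of exon, the WT levels ran from Ccnd1 (2244 ± 212 normalized counts per kb) through Cdk4 (598 ± 46.2), Cdkn1b (560 ± 19.6), Rb1 (364 ± 27.5), Ccnd3 (305 ± 16.9) and Cdkn2c (182 ± 41.4) to Ccnd2 (92.6 ± 18.9), Myc (84.9 ± 12.5), Cdk2 (79.1 ± 10.8) and Cdk6 (36.5 ± 6.43). Neighbours that did not differ beyond their SD were Cdk4 and Cdkn1b, and Ccnd2, Myc and Cdk2. In KO the top of this order was Ccnd1 (3214 ± 102), Cdk4 (614 ± 40.8) and Cdkn1b (602.5 ± 113), with Cdk4 and Cdkn1b within their SD of each other. In DKO it was Ccnd1 (2333 ± 483), Cdkn1b (646 ± 59.3) and Cdk4 (581 ± 55.0), the last 2 apart by slightly more than either SD. Myc lay below Ccnd2 in WT, at 129 ± 52.6 against 113 ± 41.7 in KO, a gap within the spread, and at 134 ± 45.0 against 78.7 ± 8.83 in DKO. Cdk6 was the lowest member per kb in all 3 groups. The order depends on the length used: by the longest transcript Ccnd3 came to 693.5 ± 38.6 in WT and passed Cdkn1b (560 ± 19.6).

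Cdk4, the more abundant per kb of the 2 kinases that D-type cyclins bind, was among the steadiest members. It was at 1804, 1922 and 2102 normalized counts in WT, 1873, 1974 and 2136 in KO and 2085, 1838 and 1737 in DKO, with the highest mouse 1.23 times the lowest. All groups overlapped, and the KO difference from WT was 0.04 ± 0.09 on the log2 scale, with an interval of -0.17 to 0.25 or a fold of 0.888 to 1.19 (adjusted p = 0.867). Cdk6, which shares its cyclins and inhibitors with Cdk4, spread more. It was at 544, 578 and 408 in WT, 909, 940 and 517 in KO and 516, 634 and 721 in DKO. KO1 and KO2 were the highest of all mice, and KO3 was at 55.9% of their mean, inside the WT and DKO ranges. KO differed from WT by 0.59 ± 0.24 (interval 0.05 to 1.13; limma adjusted p = 0.238) and DKO from KO by -0.30 ± 0.24 (adjusted p = 0.762), the latter running from -0.15 without KO2 to -0.58 without KO3 and also moving by over 1.5 times without KO1 or DKO1. Without KO3 the Cdk6 difference of KO from WT was 0.87 and passed (adjusted p = 0.0489), with array quality weights it also passed (0.0134), and without both WT3 and KO3 it was 0.72 ± 0.15 and missed (0.0531). Cdk6 made up 5.80 ± 1.28% of the summed Cdk4 and Cdk6 level per kb in WT, 8.47 ± 2.73% in KO (10.1, 9.96 and 5.32% in KO1 to KO3) and 7.21 ± 1.69% in DKO, with exact permutation p of 0.3 for KO against WT, 0.6 for DKO against KO and 0.4 for DKO against WT.

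Cdk2, the kinase that cyclin E and cyclin A activate at the start of DNA replication, stayed within overlapping ranges. It was at 473, 567 and 436.5 in WT, 447, 495 and 603 in KO and 515, 436 and 447.5 in DKO. Here KO3 was the highest of all mice, at 128% of the mean of KO1 and KO2, the reverse of its place for Cdk6 and Ccnd2. The KO difference from WT was 0.06 ± 0.14 (adjusted p = 0.856), and the DKO differences from KO and WT were -0.14 and -0.07 (adjusted p of 0.839 and 0.886, limma).

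The inhibitor of Cdk4 and Cdk6, Cdkn2c, had a pattern near that of Ccnd1. Its levels were 565, 537.5 and 360 normalized counts in WT1 to WT3, 695, 682 and 775 in KO1 to KO3 and 555, 500.2 and 572 in DKO1 to DKO3. All KO mice were above all WT and DKO mice, and WT3 was the lowest of the 9. The means were 488 ± 111, 717 ± 50.2 and 542 ± 37.5 (SD, n = 3). KO differed from WT by 0.58 ± 0.16 on the log2 scale (interval 0.22 to 0.95; limma adjusted p = 0.103), and DKO from KO by -0.40 ± 0.16 (adjusted p = 0.404). The KO difference from WT was 0.38 without WT3 and 0.32 ± 0.10 (adjusted p = 0.114) without both WT3 and KO3. It passed in KO against WT with array quality weights, at a smaller difference (0.37, adjusted p = 0.0293).

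Cdkn1b, the p27 inhibitor that is high in resting cells, was at 2489, 2511 and 2653 in WT, 2310, 2607 and 3310 in KO and 3250, 2754 and 2817 in DKO. Every DKO mouse was above every WT mouse, and the KO range held both a mouse below all WT mice and the highest mouse of all, KO3 at 135% of the mean of KO1 and KO2. The DKO difference from WT was 0.20 ± 0.12 (interval -0.08 to 0.48; adjusted p = 0.576) and the KO difference from WT was 0.09 ± 0.12 (adjusted p = 0.756). Rb1, the pocket protein gene, was at 2373, 2143 and 2052 in WT, 2003, 2111 and 2122 in KO and 2132, 2491 and 2211 in DKO. DKO was just above KO in every mouse, by 2132 against 2122 at the nearest pair, and both overlapped WT. The DKO difference from KO was 0.13 ± 0.08 (adjusted p = 0.675), and the KO difference from WT was -0.07 ± 0.08 (adjusted p = 0.687).

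By the ratio of its extremes Myc was the most variable member, with the highest mouse at 2.59 times the lowest. It was at 230, 265 and 197 normalized counts in WT1 to WT3, 510, 304 and 236 in KO1 to KO3 and 238, 371.5 and 482 in DKO1 to DKO3. KO3 and DKO1 lay inside the WT range, and the other 4 mutant mice lay above it. The means were 231 ± 33.9, 350.0 ± 143 and 364 ± 122. Myc differed from WT by 0.53 ± 0.31 in KO (interval -0.17 to 1.24; adjusted p = 0.403) and by 0.61 ± 0.31 in DKO (interval -0.10 to 1.32; adjusted p = 0.496), and DKO differed from KO by 0.07 (adjusted p = 0.970, limma). Both intervals against WT include 0. Single mice decided their size: KO against WT was 0.22 without KO1 and 0.78 without KO3, and DKO against WT was 0.38 without DKO3 and 0.88 without DKO1.

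**Figure D4:**
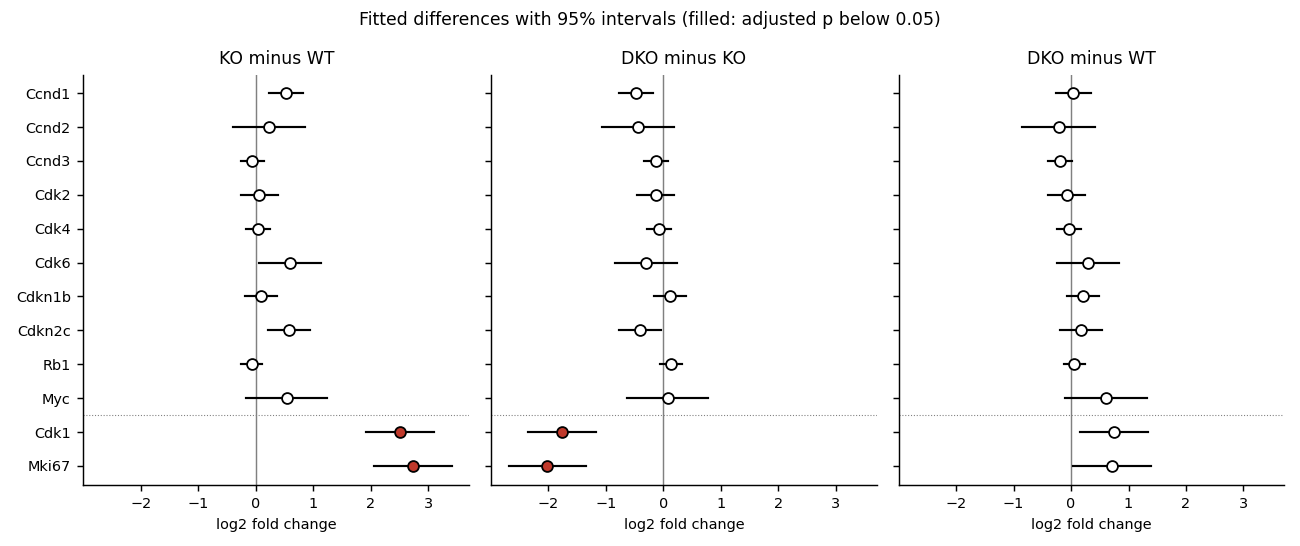
Log2 fold changes of the 10 members, and of the cycling cell genes Cdk1 and Mki67 below the dotted line, with 95% intervals from limma, for KO minus WT, DKO minus KO and DKO minus WT. Filled points passed an adjusted p of 0.05: no member did, while Cdk1 and Mki67 rose in KO (2.51 and 2.73) and fell in DKO against KO (-1.77 and -2.02).

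The rest of the pathway was described by 8 lists. Most genes of dividing cells passed the test in KO, while 0 to 3 genes passed in each of the other 7 lists. The difference between lists was not tested. Over all 15740 tested genes, limma at an unadjusted p under 0.05 had 1474 higher and 1365 lower in KO against WT. It had 660 higher and 1022 lower in DKO against KO, and 933 higher and 914 lower in DKO against WT. Of 12 genes of cycling cells, 10 rose in KO against WT (median log2 fold change 2.35, against 0.0043 over all genes), 5 fell in DKO against KO (Mki67, Top2a, Cdk1, Ccnb2 and Ccna2; median -1.78), and 0 passed in DKO against WT (median 0.52; 5 higher at an unadjusted p under 0.05). Mki67, the proliferation antigen Ki-67, went from 166 ± 31.0 normalized counts in WT to 1104 ± 117 in KO and 291 ± 134 in DKO, and Cdk1, the kinase of mitosis, from 28.4 to 166 and 49.6. The KO rise of Mki67 was 6.65-fold (adjusted p = 0.00402) and that of Cdk1 5.71-fold (0.00346), against 1.44-fold for Ccnd1. Cenpf, Ccnb2 and Ccnb1, a kinetochore protein and both B-type cyclins, had KO rises of 2.85, 2.77 and 2.75 on the log2 scale. The falls of Mki67 and Cdk1 in DKO against KO were each lost without WT1, WT2, KO1, KO2, DKO1 or DKO2, and edgeR called 1 of the 12 genes in KO against WT and 0 in each of the other comparisons.

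Of 25 other genes of the G1 machinery that were tested, 2 rose in KO against WT, 0 fell, and 0 passed in the other comparisons (medians 0.11, -0.11 and 0.01, and edgeR called 0). At an unadjusted p under 0.05, limma had 5 higher and 1 lower in KO against WT, where 9.36% of all genes were higher. In DKO against KO it had 1 higher and 7 lower, where 6.49% of all genes were lower. In DKO against WT it had 3 higher and 2 lower, against 11.7% of all genes in either direction. Skp2, the ubiquitin ligase subunit that marks Cdkn1b protein for destruction, was at 119.5, 83.4 and 103 in WT, 230.4, 225 and 228 in KO and 204.5, 130.5 and 123 in DKO. The KO mice were close together and above all others, and the rise was 1.17 ± 0.21 (adjusted p = 0.0295). It was lost without any one WT or KO mouse (highest adjusted p of 0.108) and with edgeR (0.237). Ccnc, cyclin C, rose from 1601 ± 94.7 to 2054 ± 105.1 (0.36 ± 0.07, adjusted p = 0.0376), a call lost without any one mouse except DKO3. The most abundant uncalled gene, Ccng1, which p53 induces, was at 11680 ± 1699, 12673 ± 2104 and 9032 ± 949 in WT, KO and DKO. Outside the naming rule, and chosen after its values were seen, Ccne1, a cyclin that activates Cdk2, was at 23.0 ± 7.09, 40.2 ± 8.06 and 15.3 ± 1.90, with adjusted p of 0.193 in KO against WT and 0.106 in DKO against KO. Cdkn2a was listed but lay under the minimum mean.

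Among 10 E2F and DP factors, E2f8, a repressing E2F made late in G1, rose in KO from 9.57 ± 2.43 to 46.8 ± 11.1 (2.18 ± 0.36, adjusted p = 0.0191), and DKO was at 10.6 ± 4.23. That call was lost without WT1, WT2, KO1 or KO2 (highest adjusted p of 0.0908) and with edgeR (0.160). No other factor passed in any comparison, Tfdp2, the most abundant, being at 2695 ± 445, 2800 ± 366 and 2862 ± 463. Of 26 E2F target genes of the G1/S step, 3 rose and 0 fell in KO against WT (median 0.34), and 2 fell and 0 rose in DKO against KO (median -0.35). In both comparisons edgeR on 7 libraries called 0 of the 26 (adjusted p of 0.0844 and 0.115 for Rrm2). At an unadjusted p under 0.05, limma had 12 of the 26 higher in KO than in WT, against 9.36% of all genes, and 15 lower in DKO than in KO, against 6.49%. In this list, 0 passed in DKO against WT (median -0.13), and edgeR called 0 there. At an unadjusted p under 0.05 limma had 2 in that comparison, against 11.7% of all genes in either direction. Rrm2, the regulated subunit of ribonucleotide reductase, which makes DNA precursors, rose from 167 ± 15.0 to 449.5 ± 34.9 (1.42 ± 0.17, adjusted p = 0.00525) and fell to 167 ± 35.3 in DKO (-1.44, adjusted p = 0.0168, lost without KO1 or KO2). Uhrf1, which carries DNA methylation through replication, rose from 96.7 ± 28.5 to 252 ± 57.7 (1.39 ± 0.24, adjusted p = 0.0267) and fell to 71.8 ± 10.2 in DKO (-1.78, adjusted p = 0.0306). Its rise was lost without WT1, WT2, KO1 or KO2, and its fall without KO1, KO2 or any one DKO mouse. Rrm1, the other reductase subunit, rose from 576 ± 30.8 to 977 ± 104 (0.76 ± 0.10, adjusted p = 0.00846), a call lost without WT2 (0.0504). Of 25 promoters of these targets, 9 (36.0%) held an E2F motif, against 2.26% of all promoters. The E-box was in 12.0% of them, against 7.15% of all, and the GC box in 76.0%, against 35.7%.

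Myc targets gave no call. Of 31 Myc target genes, limma and edgeR each called 0 in all 3 comparisons. At an unadjusted p under 0.05 limma had 0 in KO against WT, where 9.36% of all genes were higher. It had 1, higher, in DKO against KO, where 660 of all 15740 genes were higher. In DKO against WT it had 2, where 11.7% of all genes were past that level in either direction. Their median log2 fold changes were 0.04, 0.0003 and 0.04. Odc1, the rate-limiting enzyme of polyamine synthesis and the most abundant of them, was at 47142, 55225 and 43995 in WT1 to WT3, 94330, 72322 and 47830 in KO1 to KO3 and 29222, 28280 and 80576 in DKO1 to DKO3. Within the mutant groups Odc1 was highest in KO1 and DKO3, which are also the mice with the highest Myc level of their groups. DKO2, with Myc at 371.5 and so above every WT mouse, had the lowest Odc1 of all (28280). An association of the 2 genes was not tested. The E-box was found in 7 of 29 promoters of the Myc targets (24.1%), against 7.15% of all promoters. An E2F motif was in 17.2% of them, against 2.26% of all, and the GC box in 72.4%, against 35.7%. Of 12 Myc partners and antagonists, Mxd3, a partner of Max that competes with Myc and is made in dividing cells, rose in KO from 12.5 ± 3.67 to 51.2 ± 16.8 (1.94 ± 0.35, adjusted p = 0.0295), and DKO was at 19.0 ± 5.13. The Mxd3 call was lost without any one of WT1, WT2, KO1, KO2 and KO3, and with edgeR (0.279). No other gene of the list passed, Mlxipl, a glucose-responsive relative and the most abundant, being at 8910 ± 693, 9904 ± 1594 and 10256 ± 610.5.

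Lists of signals known to act on Ccnd1 and Myc held few calls. Of 20 mitogen-induced early genes, Ier3 fell in KO (from 1840 ± 171 to 951 ± 162, log2 difference -0.96 ± 0.15, adjusted p = 0.0167) and in DKO against WT (to 894 ± 135, log2 difference -1.05, adjusted p = 0.0367), and 0 passed in DKO against KO. The KO call was lost without WT1, WT2 or KO2 and with edgeR (0.191). The DKO call was lost without WT1, WT2, KO2, DKO1 or DKO3 and with edgeR (0.11). At an unadjusted p under 0.05, limma had 2 of the 20 higher and 1 lower in KO against WT, where 9.36% of all genes were higher. In DKO against KO it had 3 lower, where 6.49% of all genes were lower. In DKO against WT it had 2 lower, against 11.7% of all genes in either direction. Dusp1, the most abundant uncalled gene, was at 7453 ± 437.5, 6553 ± 3892 and 7619 ± 1001. Of 12 Wnt/beta-catenin targets, a list that includes Ccnd1 and Myc, limma and edgeR called 0 in each comparison, with medians of 0.0008, 0.03 and -0.08. At an unadjusted p under 0.05, limma had 1 higher and 3 lower in KO against WT, where 1474 and 1365 of all 15740 genes were so. The 1 higher gene was Ccnd1 itself. Limma had 2 lower in DKO against KO, Ccnd1 among them, where 6.49% of all genes were lower, and 0 in DKO against WT.

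Marker sums of other cells were set beside the members mouse by mouse, and no association between them was tested. The 11 macrophage markers in the table, of 12 listed, summed to 10917 to 12456 normalized counts in WT, to 19309, 19892 and 10975 in KO1 to KO3 and to 8500 to 12915 in DKO. The 12 markers of T, B and NK lymphocytes summed to 479 to 697.5 in WT, to 1129, 1424 and 722 in KO1 to KO3 and to 581, 411 and 1046 in DKO1 to DKO3, and the 10 of fibroblasts and pericytes to 10031 to 13639, to 17938, 18916 and 11911, and to 8012 to 9567. KO1 and KO2 were the highest of the 9 mice in all 3 sums, as they were for Ccnd2 and Cdk6, and KO3 was inside the WT range for macrophages and for fibroblasts and pericytes. Within DKO, Ccnd2 was highest in DKO2 (836), which had the lowest macrophage (8500) and lymphocyte (411) sums. Cdk6 was highest in DKO3 (721), where those 2 sums were highest. Abundant genes weigh most in a sum, such as Cd74 at 10978 in KO1. Fitted differences of KO from WT were above 0 for 10 tested macrophage markers and below 0 for 1. They were above and below 0 for 9 and 2 lymphocyte markers, and for 7 and 3 fibroblast and pericyte markers. No marker of these lists was at 0 in all libraries. The part of these cells in the Ccnd2, Cdk6 and Myc levels was not tested. Cycling cell genes summed to 529 to 682 in WT, to 2908, 3598 and 3371 in KO1 to KO3 and to 606.5 to 1337 in DKO, so that KO3 was not set apart, and Ccnd1 and Cdkn2c were likewise high in all 3 KO mice. The part of cycling cells in the Ccnd1 and Cdkn2c levels was not tested. The 10 markers of tubular injury summed to 31896 to 33288 in WT, 24174 to 48036 in KO and 22831 to 31358 in DKO, with KO overlapping both. Spp1, at 20424 in WT1, weighed most in that sum. None of the 10 passed in KO against WT, where 8 fitted differences were above 0 and 2 below. At an unadjusted limma p under 0.05, 2 were higher (Cd44 and Vcam1, outside the naming rule), against 9.36% of all genes. In DKO against KO all 10 were below 0, and 5 were lower at that level, against 6.49% of all genes.

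**Figure D5:**
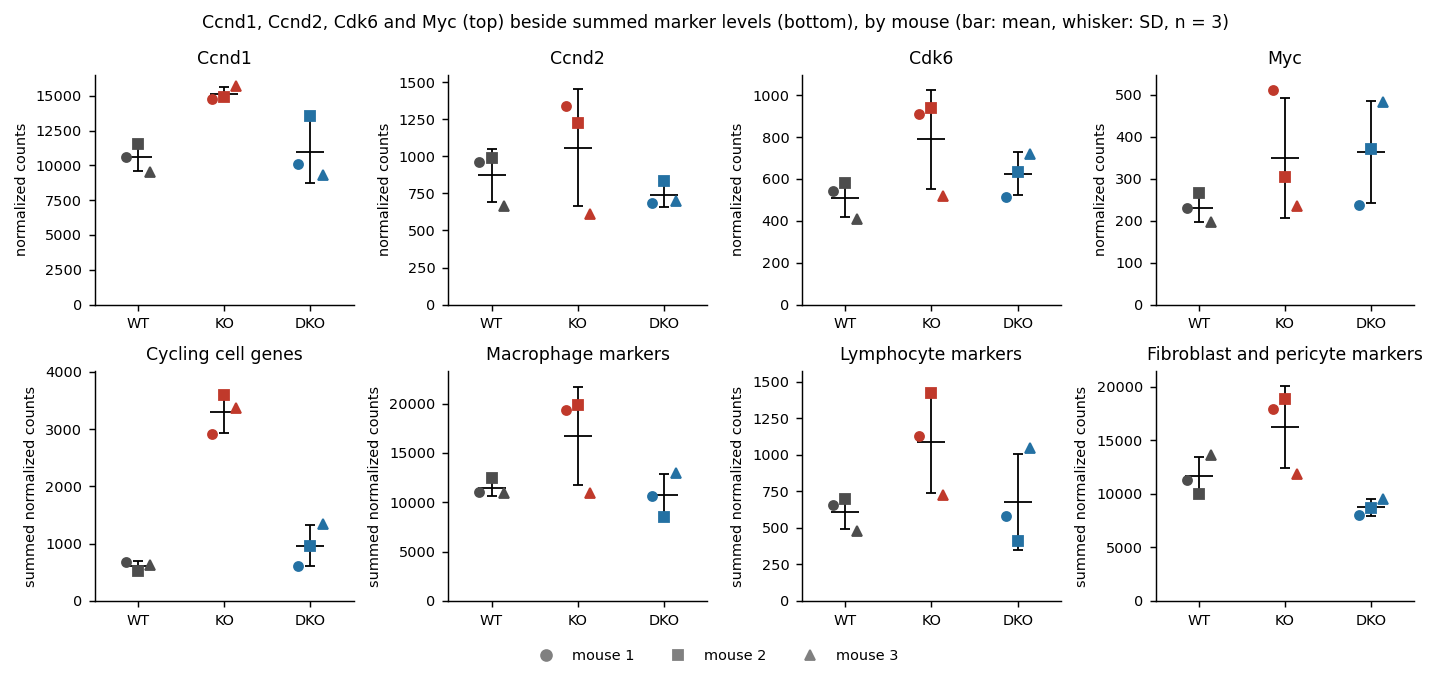
Normalized counts of Ccnd1, Ccnd2, Cdk6 and Myc (top row) and summed normalized counts of cycling cell genes and of macrophage, lymphocyte and fibroblast or pericyte markers (bottom row) in each mouse, with the mean (bar) and SD (whisker, n = 3). KO3 (triangle) is low beside KO1 and KO2 for Ccnd2, Cdk6, Myc and the 3 marker sums, and with them for Ccnd1 and the cycling cell genes.

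Over the 9 libraries the members' log2 levels went together in pairs, which is given as a description, since the libraries share groups and a name prefix. Pearson's r was 0.787 for Cdk6 and Myc, 0.762 for Ccnd2 and Cdk6, 0.701 for Ccnd1 and Cdkn2c and -0.805 for Ccnd2 and Cdkn1b. Cdk4 and Myc had an r of -0.68. Likeness was ranked among 12215 genes with a mean of at least 50, with clone, pseudogene, date and repeated names left out. Those whose levels were most like Ccnd1 were Cdk16 (r = 0.948), Ncapd3 (0.948), a condensin subunit, and Chpf (0.946), an enzyme of chondroitin synthesis. Those most like Myc were Scyl2 (0.958), Usp32 (0.950) and Nacc1 (0.942).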

How the data were processed

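Poly(A) libraries were made from Trizol-extracted kidney RNA of 9 mice, per the labels' protocols. The deposited values are a signal: read counts per gene that the authors divided by DESeq2 size factors, from reads aligned with STAR 2.5.0 and counted with HTSeq 0.6.1, per the submitters' processing notes. Not given in the sources used here are the genome build, the annotation, the strand setting and the version of DESeq2. Reads of a gene and of one that overlaps it on either strand therefore cannot be told apart. Of the rows, 25 carry dates in place of gene symbols and none of them is discussed.

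Groups came from the sample titles. Log2(normalized count + 1), which understates changes of low genes, was fitted with limma 3.58.1 (R 4.3.3): 3 groups, an intensity trend, no block, and the 15740 genes whose mean reached 10. Calls needed a Benjamini-Hochberg adjusted p under 0.05 (two-sided). Dividing by the value of 1 read gave whole numbers for 100% of values (tolerance 0.05) in 7 libraries, with 37056843 to 47314829 reads each, and edgeR 4.0.16 was run on these. WT1 and KO1 stayed out of it because their scaling lies within 1% of 1. Intervals are between mice.

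The members, gene lists and tests were chosen with earlier results of these data known. Named genes were all members, Pkd2, Ift88, up to 5 called genes per list and direction, each list's most abundant uncalled gene, the 3 genes most like Ccnd1 and Myc, Mki67 and Cdk1. For 1 list that uncalled gene is not reported here. Exon lengths came from GENCODE M21, and the authors may have counted on another annotation. Alternatives changed the pseudocount, filter, scaling, weights, samples, block and test. The procedure was tested on simulated data.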

Additional observations from a re-analysis of the deposited data

How the results depend on the processing

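The counts of calls and the log2 differences of the members, Pkd2 and Ift88 were recomputed under 23 alternatives. The Ccnd1 share of the D-type cyclins was recomputed under 5. Sums per kb, motif matches and correlations were not recomputed. With 3 mice a group, calls depended on single libraries. Called genes in KO against WT were 377, and 3222 with array quality weights, 217 with a replicate block, 11 with edgeR on 7 libraries, 13 with limma on those 7, and 70 to 436 with each library left out. In DKO against KO they were 62, and 31 with quantile normalization, 614 with weights, 26 with only the 2 groups, 15 with the block, 308 without WT3 and KO3, 10 with edgeR, 11 with limma on 7 libraries and 8 to 154 with each library left out. In DKO against WT they were 36, and 295 with weights, 20 with the block, 111 without WT3 and KO3, 10 with edgeR, 11 with limma on 7 libraries and 18 to 58 with each library left out. The 7-library fits had fewer samples, and the cause of the other shifts was not tested.

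Called members in KO against WT went from 0 to 3 with array quality weights (Ccnd1, Cdk6 and Cdkn2c), to 1 with only the 2 groups (Ccnd1) and to between 0 and 1 with each library left out. In DKO against KO they went from 0 to 1 without WT3 and KO3 (Ccnd2), and in DKO against WT they were 0 under every alternative run. Called genes of the 8 lists in KO against WT were 18, and 49 with weights, 1 with edgeR, 1 with limma on 7 libraries and 8 to 21 with each library left out. In DKO against KO they were 7, and 4 with quantile normalization, 22 with weights, 2 with only the 2 groups, 1 with the block, 12 without WT3 and KO3, 0 with edgeR, 0 with limma on 7 libraries and 0 to 9 with each library left out. In DKO against WT the 1 call became 0 without the intensity trend, with the block, with edgeR and with limma on 7 libraries, 2 with weights and 0 to 1 with each library left out. Residual r of mice of the same number (1, 2 and 3) was 0.0612, -0.0798 and 0.0515 between KO and WT, -0.0790, -0.142 and -0.138 between DKO and KO, and 0.215, 0.0186 and 0.109 between DKO and WT. Only numbers 1 and 3 of the last pair of groups and number 3 of the first had their best match in their own number. Not every r was over 0.1 in any pair of groups, so the number was not taken as a pairing. The replicate block changed no count of called members. With it the limma adjusted p in DKO against KO was 0.0753 for Ift88 and Cdk1, 0.0796 for Mki67 and Uhrf1, 0.0916 for Ccnb2, 0.0652 for Top2a and 0.0554 for Rrm2. In DKO against WT it was 0.0998 for Ier3. In KO against WT it was 0.0794 for Ccnc, 0.0635 for Uhrf1 and 0.0850 for Plk1, a gene of the cycling cell list.

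Signs turned only for log2 differences that passed no test. In KO against WT, Ccnd3 was 0.023 without WT3 and KO3, Cdk2 was -0.076 with weights, -0.14 without WT3 and KO3 and -0.056 to 0.17 with each library left out, Cdk4 was -0.014 to 0.097 so left out, Cdkn1b was -0.0028 with weights, -0.027 without WT3 and KO3 and -0.055 to 0.20 with each library left out, and Rb1 was 0.020 with edgeR and 0.013 with limma on 7 libraries. In DKO against KO, Cdkn1b was -0.012 with edgeR, -0.0027 with limma on 7 libraries and -0.0027 to 0.26 with each library left out, Myc was -0.22 with weights, -0.17 without WT3 and KO3 and -0.17 to 0.38 with each library left out, and Pkd2 was -0.22 to 0.0096 so left out. In DKO against WT, Ccnd1 was -0.030 without WT3 and KO3 and -0.12 to 0.15 with each library left out, Cdk2 was -0.16 to 0.033, Cdk4 was 0.028 with weights, 0.015 without WT3 and KO3 and -0.12 to 0.015 with each library left out, Cdkn2c was -0.010 with weights, -0.026 without WT3 and KO3 and -0.026 to 0.30, and Rb1 was -0.0096 to 0.12. The Ccnd1 share of the D-type cyclins was 77.2, 82.9 and 80.0% in WT, KO and DKO by the longest transcript and 74.8, 80.7 and 77.9% with no length correction.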

Other observations

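Mcm6, a subunit of the replication helicase and a member of the E2F target list, was at 997, 1101 and 181 normalized counts in WT1 to WT3, 1289, 1557 and 1511 in KO1 to KO3 and 90.6, 104 and 999.5 in DKO1 to DKO3. WT3, DKO1 and DKO2 were far below the other 6 mice, and the low mice cut across the groups. Mcm2, another subunit, was at 450, 466.5 and 446, at 576, 777.5 and 670, and at 475, 493 and 326 in the same mice, with no such gap. Fos, a mitogen-induced early gene, was at 9793 in KO3 and at 326 to 2190 in the other 8 mice. Cdkn1a (p21), an inhibitor of cyclin kinases, was at 154, 333.5 and 270 in WT, 527, 612 and 308 in KO and 133, 801 and 343 in DKO, and passed no test. The genes of this paragraph were chosen after their values were seen.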
